A study of Mus musculus with 8 samples.

Results

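Matrilins, cartilage oligomeric matrix protein (COMP) and thrombospondins are secreted, multi-subunit proteins of the matrix around chondrocytes. All probe sets that the array annotation assigns to Matn1, Matn2, Matn3, Matn4, Comp, Thbs1, Thbs2, Thbs3 or Thbs4 alone were taken, which gave 14 probe sets for 9 genes, of 18193 genes named alone by at least 1 of the 45037 probe sets on the array. The 14 comprise 6 for matrilins, 1 for Comp and 7 for thrombospondins. A further probe set is shared by Thbs1 and Pald1 in the annotation and was kept apart.

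The RNA came from primary chondrocytes of E18.5 FVB mouse embryos, late in gestation, released by collagenase and trypsin from dissected rib cages. Embryos of 4 litters were sorted by genotype into wild type controls and Hoxd4 transgenic embryos, and each litter gave 1 array of either kind, so that 4 control and 4 transgenic arrays were compared. The comparison asks which transcripts differ when Hoxd4, a homeobox transcription factor of the axial skeleton, is overexpressed. The labels name neither the promoter that drives the transgene nor the transgenic line, and they do not say how many embryos were pooled for an array.

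Matrilins carry von Willebrand factor A domains and epidermal growth factor-like repeats, assemble through a coiled coil, and form filaments that link collagen fibrils to proteoglycans. COMP belongs to the thrombospondin family and forms pentamers, as Thbs3 and Thbs4 do, whereas Thbs1 and Thbs2 form trimers and carry the type I repeats known to restrain blood vessel growth. Mutations of human COMP and MATN3 cause multiple epiphyseal dysplasia, a disorder of growth cartilage. Matn1, Matn3 and Comp are known mainly from cartilage, Matn2 and Thbs2 from many connective tissues, and Thbs4 from tendon and muscle.

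Sequence before the transcription start is shown for 4 members because the text below turns on them: Thbs4 and Thbs2 had a similar order of levels over the litters, Matn1 had another, and Matn3 varied little. Each run is the 250 bases before the start on the gene's own strand, from RefSeq on GRCm38.p6, and capitals mark E-boxes (CANNTG), the letters bound by basic helix-loop-helix factors such as scleraxis and Twist1.
Thbs4 (chr13:92794819-92795068, minus strand): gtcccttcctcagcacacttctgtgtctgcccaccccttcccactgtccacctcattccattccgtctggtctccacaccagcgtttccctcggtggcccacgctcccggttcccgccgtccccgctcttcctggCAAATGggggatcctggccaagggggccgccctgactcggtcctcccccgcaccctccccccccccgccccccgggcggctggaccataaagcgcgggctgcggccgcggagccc
Thbs2 (chr17:14694263-14694512, minus strand): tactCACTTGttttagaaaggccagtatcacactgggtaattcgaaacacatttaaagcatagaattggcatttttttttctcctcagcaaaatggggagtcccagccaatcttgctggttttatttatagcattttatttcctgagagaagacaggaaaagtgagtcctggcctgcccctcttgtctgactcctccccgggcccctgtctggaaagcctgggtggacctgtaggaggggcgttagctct
Matn1 (chr4:130944135-130944384, plus strand): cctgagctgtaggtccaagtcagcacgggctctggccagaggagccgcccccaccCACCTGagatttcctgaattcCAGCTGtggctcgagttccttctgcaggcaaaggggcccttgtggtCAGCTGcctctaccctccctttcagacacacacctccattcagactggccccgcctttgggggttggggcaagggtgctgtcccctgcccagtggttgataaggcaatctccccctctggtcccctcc
Matn3 (chr12:8947679-8947928, plus strand): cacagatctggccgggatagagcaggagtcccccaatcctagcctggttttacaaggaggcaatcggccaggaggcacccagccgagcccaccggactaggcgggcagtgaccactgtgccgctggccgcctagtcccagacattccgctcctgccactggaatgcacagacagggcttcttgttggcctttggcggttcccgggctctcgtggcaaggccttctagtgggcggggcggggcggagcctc
The sequence table held 6 of the 9 genes, and not Matn2, Comp or Thbs1. On either strand, CANNTG occurred 3 times before Matn1, once each before Thbs2 and Thbs4, and not before Matn3, while 66.2% of all 32851 promoter windows in the table held it. TATAAA, present in 12.4% of the windows, was found before Thbs2, 126 bases upstream of the start, and in none of the other 3. GGGCGG, present in 32.7%, occurred 3 times before Thbs4, 3 times before Matn3 in matches that overlap each other, and once before Matn1. CCAAT, present in 33.8%, occurred 2 times before Thbs2 and once before Matn3, and the Sox core ACAAAG, present in 16.5%, was in none of these 4 and once before Thbs3. These matches describe the letters and are not measured binding sites.

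The arrays were alike in scale and rank: the median signal lay between 101 and 115 and rank correlations between arrays between 0.932 and 0.942. Signals are those of the MAS5 algorithm on a linear scale, and log2 differences were taken after adding 32 to each signal. Signals of different probe sets cannot be ranked against each other, because each binds with its own strength. Since RNA of a cell mixture was measured, fewer cells of a type and less RNA per cell cannot be told apart. Of the 10 chondrocyte markers all were bright enough to be tested. Their summed signal ranged from 287790 to 324820 in controls and from 307720 to 332040 in transgenics. By litter, this sum was lower in the transgenic array in litters 1 and 3 and higher in litters 2 and 4. On average over the litters all 10 were higher, with a median log2 difference of 0.05, where 51.2% of all tested probe sets were higher. Of the 10, 0 had an unadjusted p under 0.05 in limma, against 3.29% of all tested probe sets. Only a pair of probe sets shared by Hoxd4 and Hoxd3 stood for the transgene. In 1 of these the array labelled transgenic was higher in litters 1, 2 and 3. In litter 4 the same probe set gave the control a signal of 256 against 13.0 for the array labelled transgenic. The other read between 8.92 and 48.0 over all arrays, with means of 26.5 in controls and 20.6 in transgenics. Directions, intervals and calls between the genotypes below therefore all rest on the labels. The summed signal of Y-linked genes lay between 756 and 1512 in controls and between 1719 and 2695 in transgenics. All 3 tested ones were higher, by 0.75 to 0.92 on the log2 scale, each with an unadjusted p under 0.05 in limma. Xist, a marker of female cells, read 5778, 9946, 13760 and 8098 in controls of litters 1, 2, 3 and 4. Its transgenic signals were 79.8, 3266, 47.2 and 8209. The part of embryo sex in the differences below was not tested.

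With the arrays grouped as labelled, no difference between the genotypes was detected in any of the 9 genes. The 95% intervals bound a change of the measured signal to at most 1.34-fold, the widest being that of Matn1. Of the 14 probe sets 7 were higher and 7 lower in arrays labelled transgenic, where 51.2% of all tested probe sets were higher, the median log2 difference was 0.0016 against 0.0029 over all tested probe sets, and the single differences lay between -0.12 (Thbs4) and 0.11 (1 of the Thbs1 probe sets). In limma 0 of 14 passed an adjusted p of 0.05, with an adjusted p of 0.9997 for each, and 0 had an unadjusted p under 0.05. Over all tested probe sets 0% passed the adjusted and 3.29% the unadjusted threshold. The groups overlapped for all 14, where 2.27% of all tested probe sets had groups that did not overlap, 1.18% with the transgenic arrays above and 1.09% below. All 14 had a 95% interval within 0.5 to either side of 0, as had 75.3% of all tested probe sets. With the litter as a block, 1 of 14 had an unadjusted p under 0.05 in limma against 5.54% of all, and the lowest adjusted p of the 14 was 0.89.

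**Figure D1:**
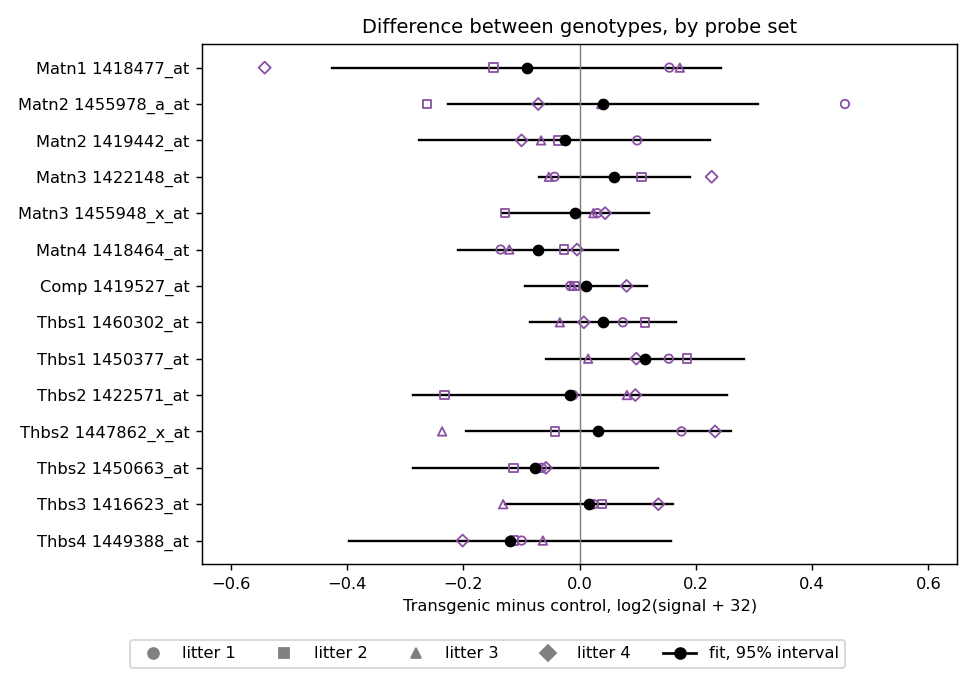
Difference between transgenic and control arrays for the 14 probe sets, on the log2(signal + 32) scale; filled points are the fitted difference, bars its 95% interval and open symbols the difference within each litter. All 14 intervals include 0, and the widest, that of Matn1, runs from -0.43 to 0.24.

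Among the matrilins, Matn1, long known as cartilage matrix protein, read 6095, 4736, 4548 and 7605 in controls of litters 1, 2, 3 and 4, an order kept below. Its transgenic signals were 6787, 4271, 5129 and 5213. The control of litter 4 was the highest of the 8 arrays and the transgenic array of litter 2 the lowest. Means were 5746 ± 1418 (SD, n = 4) and 5350 ± 1048 (SD, n = 4), and the log2 difference was -0.09 (95% interval -0.43 to 0.24). The transgenic array was higher in litters 1 and 3 and lower in litters 2 and 4, by 0.54 on the log2 scale in litter 4. The log2 difference was 0.05 without control replicate 4, 0.010 without transgenic replicate 2 and 0.060 without litter 4, so its sign rests on single arrays. A change of Matn1 of up to 1.34-fold lies within the interval.

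Matn3, a matrilin of growth cartilage that binds COMP and type IX collagen, had control signals of 20371, 18245, 19010 and 17601 for probe set 1422148_at. Its transgenic signals were 19768, 19641, 18323 and 20606. The highest array exceeded the lowest 1.17-fold, and the transgenic array was higher in litters 2 and 4 only. The log2 difference was 0.06 (95% interval -0.07 to 0.19), and that of the second probe set, 1455948_x_at, was -0.01 (95% interval -0.13 to 0.12). Both intervals stayed within 1.14-fold.

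Matn4, a matrilin also found outside the skeleton, had control signals of 4736, 4247, 4419 and 4545. Its transgenic signals were 4307, 4168, 4060 and 4531. It was lower in the transgenic array of all 4 litters, by 0.005 to 0.14 on the log2 scale. Over all tested probe sets 6.61% ran lower in all 4 litters and 6.83% higher. The groups overlapped, since the transgenic array of litter 4 lay above 2 of the controls, and the log2 difference was -0.07 (95% interval -0.21 to 0.07).

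Matn2, a matrilin of connective tissue sheaths, muscle and nerve, was read by 2 probe sets. For 1455978_a_at the control signals were 1693, 2876, 2387 and 2537 and the transgenic signals 2335, 2392, 2450 and 2413. The 4 transgenic arrays thus lay close together, at 2398 ± 48.3 (SD, n = 4), while the controls spread around 2373 ± 498 (SD, n = 4), with litter 1 lowest and litter 2 highest. The other probe set, 1419442_at, gave 1612, 2369, 2174 and 2155 in controls and 1728, 2308, 2074 and 2008 in transgenics. It also put litter 1 lowest and litter 2 highest, but did so in both genotypes. In litter 1 the difference between the genotypes was 0.46 by the first and 0.10 by the second probe set, so the 2 disagree on that litter. Their log2 differences over all litters were 0.04 (95% interval -0.23 to 0.31) and -0.03 (95% interval -0.28 to 0.22).

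Comp, which bridges collagen fibrils and binds matrilins, was the steadiest of the 9 genes. Its control signals were 31026, 31785, 31988 and 29546, and its transgenic signals 30676, 31593, 31714 and 31247. The highest array exceeded the lowest 1.08-fold, with the control of litter 4 lowest. Means were 31086 ± 1107 (SD, n = 4) and 31308 ± 465 (SD, n = 4). The log2 difference was 0.01 (95% interval -0.09 to 0.12), which bounds a change of the measured signal to 1.08-fold. After quantile normalization the difference was -0.02.

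**Figure D2:**
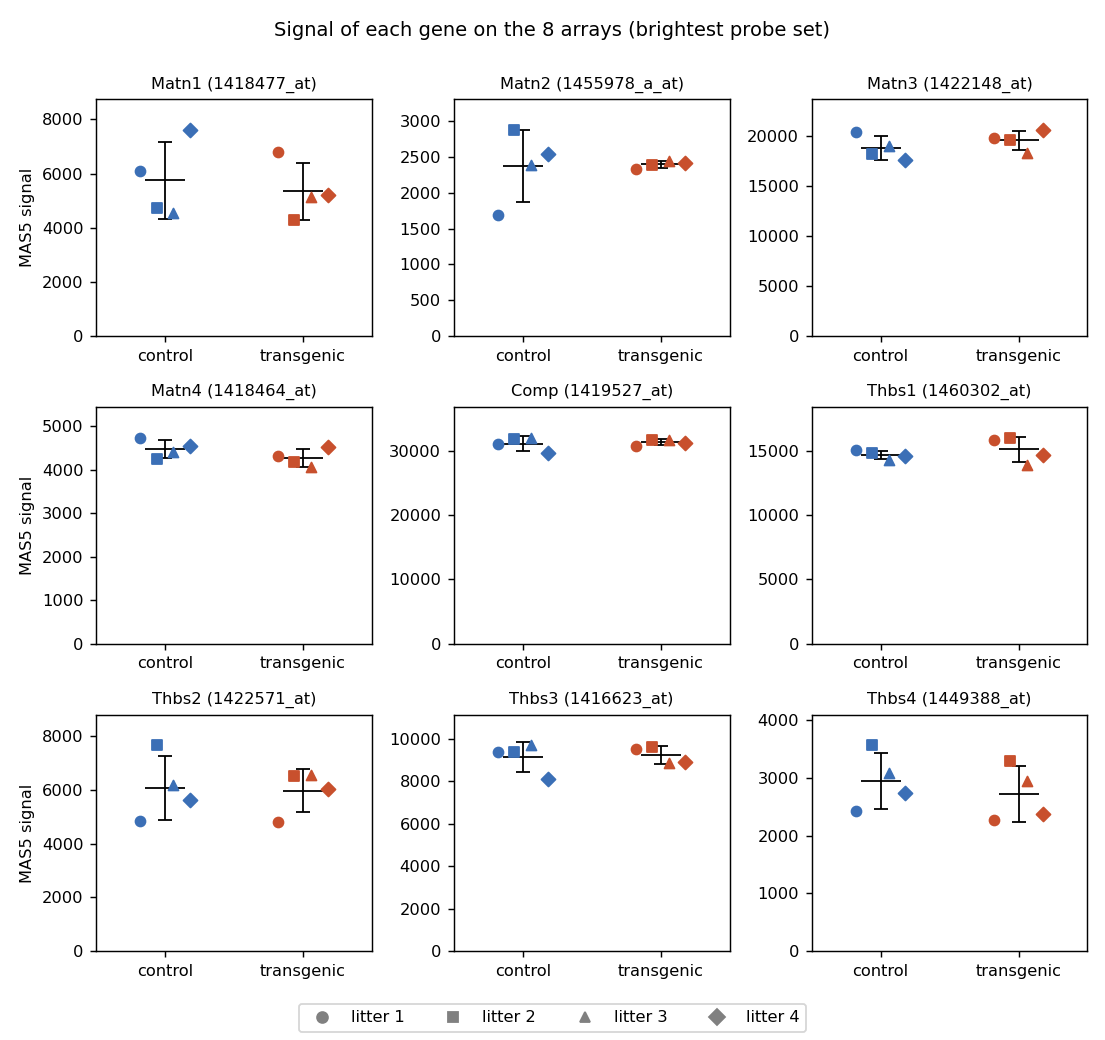
MAS5 signal of the brightest probe set of each of the 9 genes on the 4 control (blue) and 4 transgenic (red) arrays; symbols mark the litter, horizontal lines the mean and bars the SD. The groups overlap in every panel, Comp stays between 29546 and 31988, and Thbs4 and Thbs2 put litter 1 at the bottom in both groups.

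Of the thrombospondins that form trimers, Thbs1, which activates latent TGF-beta and is released by platelets, had control signals of 15026, 14791, 14243 and 14584 for 1460302_at. Transgenic signals were 15821, 15992, 13909 and 14657, higher in litters 1, 2 and 4. For 1450377_at the controls read 12758, 12449, 11286 and 11235 and the transgenics 14191, 14155, 11401 and 12021. This probe set was higher in the transgenic array of all 4 litters, and it was also higher in both arrays of litters 1 and 2 than in any array of litter 3 or 4. Its log2 difference was 0.11 (95% interval -0.06 to 0.28), and with the litter as a block the interval ran from 0.01 to 0.22 (adjusted p = 0.89 in limma). The other Thbs1 probe set gave 0.04 (95% interval -0.09 to 0.17), and the one shared with Pald1, with means of 18385 ± 748 and 19269 ± 1054 (SD, n = 4), gave 0.07 (95% interval -0.06 to 0.19). Among genes of the immediate early response to serum, of which Thbs1 is also a known target, 12 of 13 were higher, the median being 0.08. Over all tested probe sets 51.2% were higher. Klf4 (0.29) and Dusp1 (0.17), 2 of the 13, had an unadjusted p under 0.05 in limma, against 3.29% of all tested probe sets. The summed signal of the 13 ranged from 113480 to 128600 in controls and from 110990 to 142210 in transgenics. The part of these genes in the Thbs1 values was not tested. Of the platelet and megakaryocyte markers Pf4 had a control mean of 469 ± 262 (SD, n = 4) against a transgenic mean of 498 ± 241 (SD, n = 4). Itga2b differed by -0.34 on the log2 scale (95% interval -0.69 to 0.003) and Gp1bb by 0.09, and Ppbp and Gp9 lay below the test's limit.

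Thbs2, which shapes collagen fibrils in skin and tendon, had control signals of 4845, 7638, 6168 and 5621 for 1422571_at. Transgenic signals were 4808, 6497, 6528 and 6008. Both arrays of litter 1 were the lowest of the 8, and the control of litter 2 was the highest. A second probe set, 1450663_at, gave 4654, 6223, 5876 and 5390 in controls and 4448, 5750, 5601 and 5176 in transgenics, and was slightly lower in the transgenic array of all 4 litters. The third, 1447862_x_at, ranged from 3557 to 5349 and put litter 3 highest. Their log2 differences were -0.02, -0.08 and 0.03, and the intervals together ran from -0.29 to 0.26.

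Thbs3, a pentamer-forming thrombospondin of cartilage and bone, had control signals of 9385, 9381, 9693 and 8091 and transgenic signals of 9545, 9632, 8844 and 8890. The control of litter 4 was the lowest array and that of litter 3 the highest. The log2 difference was 0.02 (95% interval -0.13 to 0.16).

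Thbs4, which organises collagen in tendon and muscle, had control signals of 2432, 3558, 3079 and 2729. Its transgenic signals were 2267, 3287, 2945 and 2369. The transgenic array was the lower one in all 4 litters, by 0.06 to 0.20 on the log2 scale, yet the groups overlapped widely, since litters 2 and 3 were high and litters 1 and 4 low in both. Means were 2950 ± 484 (SD, n = 4) and 2717 ± 483 (SD, n = 4), with a log2 difference of -0.12 (95% interval -0.40 to 0.16). With the litter as a block the interval narrowed to -0.24 to 0.005 (adjusted p = 0.89 in limma). The direction held in all 21 alternatives tried, which gave values from -0.22 to -0.03. Those that changed only the filter, the variance trend or the block, or averaged its only probe set, could not move the value.

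Between litters, 1 of the 9 genes, Thbs4, passed the test, and some probe sets of Thbs2 and Matn2 had the next lowest adjusted p values without passing. The test of the 4 litters, with the genotype in the fit, asks whether the 2 arrays of a litter resemble each other more than those of other litters. Litter, dissection and array handling cannot be told apart here. Thbs4 had an adjusted p of 0.039 (moderated F test in limma) and was the only 1 of 14 to do so, where 0.484% of all tested probe sets passed. Its litter means were 2350, 3422, 3012 and 2549, a span of 1.45-fold, against a mean difference within litters of 0.12 on the log2 scale. Both arrays of litter 2 lay above both of litter 3, and these lay above all arrays of litters 1 and 4. Thbs2 did not pass, with an adjusted p in limma of 0.062 for 1422571_at, whose litter means were 4826, 7068, 6348 and 5814, and 0.073 for 1450663_at. The third Thbs2 probe set, 1447862_x_at, had an adjusted p of 0.27 in limma. For Matn2, 1419442_at had an adjusted p of 0.094 in limma and litter means of 1670, 2339, 2124 and 2081. The brighter Matn2 probe set, 1455978_a_at, had an adjusted p of 0.37 in limma. Before adjustment, 7 of 14 probe sets had a p under 0.05, where 14.6% of all tested probe sets did. These 7 are 1 each of Matn1, Matn2, Thbs1 and Thbs4 and all 3 of Thbs2, so they stand for 5 genes. All 14 had litter means within 1.5-fold of each other, as had 89.8% of all tested probe sets.

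The Thbs4 call depended on the processing. Over 10 alternatives the adjusted p in limma ran from 0.021 to 0.39, and 5 of the 10 kept it under 0.05. It ended with no filter on dim probe sets (0.105), with no intensity trend in the variance (0.39), and without litter 1 (0.26), litter 2 (0.18) or litter 4 (0.053). Thbs2 moved the other way under 2 of its 10: with quantile normalization the adjusted p in limma was 0.032 for 1422571_at and 0.039 for 1450663_at, and without litter 3 it was 0.033 for 1422571_at.

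The order of the litters was shared by some members and not by others. From low to high, Thbs4, 2 of the 3 Thbs2 probe sets and 1 of the 2 Matn2 probe sets ran litter 1, 4, 3 and 2, an order found in 6.92% of all tested probe sets. Matn1 ran in the reverse order, with means of 6441 in litter 1 and 6409 in litter 4 but 4504 in litter 2 and 4838 in litter 3 (adjusted p = 0.16 in limma). Both arrays of litter 1 lay above all arrays of litters 2 and 3, whereas litter 4 held 7605 and 5213 and so differed within itself. The Thbs1 probe set 1450377_at had another order, with 13474 and 13302 in litters 1 and 2 and 11344 and 11628 in litters 3 and 4 (adjusted p = 0.17 in limma). Matn3, Matn4, Comp and Thbs3 had litter means within 1.12-fold of each other, and the lowest adjusted p in limma among them was 0.51.

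**Figure D3:**
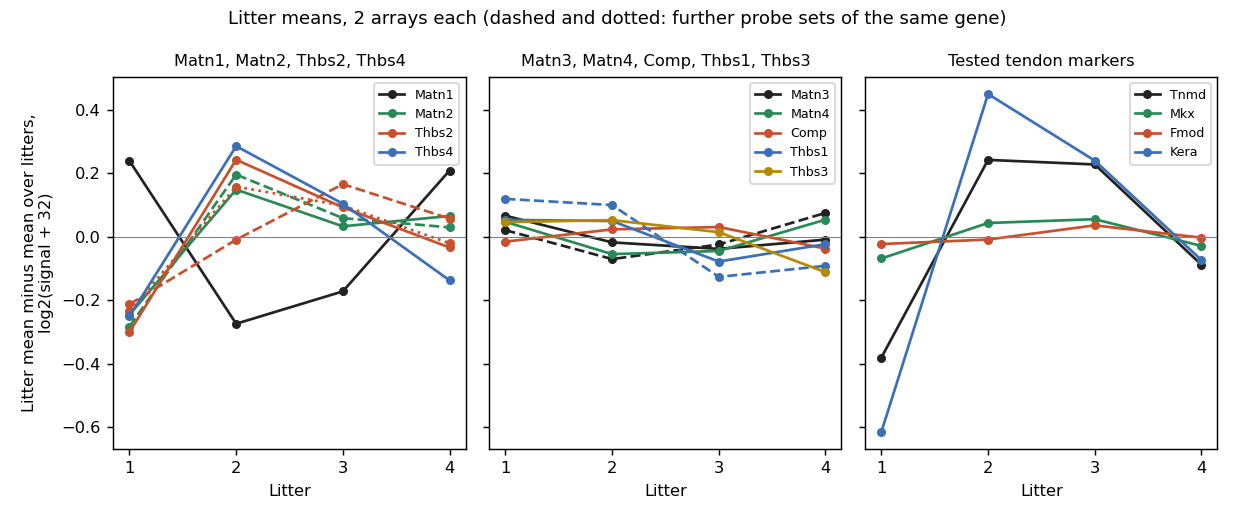
Mean of the 2 arrays of each litter minus the probe set's mean over litters, on the log2(signal + 32) scale; each line joins the points of 1 probe set and litters have no order. Litter 1 is lowest for Thbs4, Thbs2 and Matn2 and highest for Matn1, and the 5 genes in the middle panel stay closer to 0. All tested tendon markers are lowest in litter 1, Tnmd and Kera by more than Mkx and Fmod.

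Of the 4 tested tendon markers 2 passed the same test between litters, where 0.484% of all tested probe sets passed. Tnmd, a membrane protein of tendon cells, had litter means of 7781, 12006, 11880 and 9544 (adjusted p = 0.0072 in limma), and Kera, a small proteoglycan of tendon and cornea, 384, 836, 718 and 581 (adjusted p = 0.033). Mkx and Fmod, the other tested tendon markers, had adjusted p values of 0.97 and 0.94 in limma, and Scx, the defining transcription factor, lay below the test's limit on average. The summed signal of the 7 fibroblast and perichondrium markers had litter means of 128550, 153390, 148560 and 142140, the same order as Thbs4. A sum follows its brightest probe sets. All 7 were lowest in litter 1, but the share of all tested probe sets lowest in litter 1 was not counted. Col1a1, Pdgfra and Postn ran in the order of Thbs4, found in 6.92% of all tested probe sets. Col1a2 and Dpt were highest in litter 3 and Twist1 in litter 4, and Col3a1 was higher in litter 4 than in litter 3. Of the 7, 0 passed the test between litters. Skeletal muscle markers summed to 28512, 39310, 34346 and 34771, again lowest in litter 1 and highest in litter 2. Among them Tnnt3 was highest in litter 1, Myh3 in litter 3, and Myog, Myod1 and Actc1 in litter 4. Of the 10 muscle markers 0 passed the test between litters. Macrophage markers summed to 852, 1802, 1497 and 1118, in the same order as Thbs4. Cd68, C1qa and Fcgr3 among them were too dim to be tested, and 0 of the 4 tested passed. Lyz2 was highest and Adgre1 lowest in litter 4, while Csf1r and C1qb ran in the order of Thbs4. Of the platelet and megakaryocyte markers, Pf4 had litter means of 291, 768, 570 and 306 (adjusted p = 0.048 in limma), also in that order, whereas Itga2b was highest in litter 3 and Gp1bb lowest in litter 2, with adjusted p values of 0.75 and 0.95. Erythroid markers summed to 2813, 3619, 5889 and 4584. Most of each sum was Alas2, with litter means of 2559, 3287, 5457 and 4143, which passed the test (adjusted p = 0.0032 in limma). Slc4a1, the other tested erythroid marker, was highest in litter 4, at 386 against 379 in litter 3 (adjusted p = 0.080 in limma). Hba-a1 and Hbb-bh1 were too dim to be tested. Endothelial markers summed to 1446, 1808, 1797 and 2099, and osteoblast markers to 1292, 1199, 1138 and 1505, in other orders. Smooth muscle markers summed to 5440, 5265, 5013 and 5791, lowest in litter 3 and highest in litter 4. The summed chondrocyte markers were within 309910 to 317570. By genotype, fibroblast markers summed to between 129600 and 149950 in controls and 127500 and 156820 in transgenics, tendon markers to between 56314 and 63867 and 55944 and 63479, and muscle markers to between 29613 and 42916 and 27411 and 39384. The part of these cell types in the litter values of Thbs2, Thbs4 and Matn2 was not tested. Of the endothelial markers, 2 of 7 were higher and 5 lower in transgenics, the median being -0.23, where 51.2% of all tested probe sets were higher. Cdh5, at -0.60, was the 1 of 7 with an unadjusted p under 0.05 in limma, against 3.29% of all tested probe sets.

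The 9 genes also differed in how much they varied over all 8 arrays. Bright probe sets vary little on these arrays, so each SD on the log2 scale was set beside those of tested probe sets whose mean signal was within 1.5-fold. Matn1 varied more than 97.7% of 1177 such probe sets, Thbs4 more than 95.5% of 2129, the brightest probe set of Thbs2 more than 94.5% of 1089 and that of Matn2 more than 93.2% of 2450. Comp varied more than 1.81% of 276, and Matn4 more than 16.9% of 1446. Matn3, Thbs1 and Thbs3 lay in between, at 46.5%, 25.1% and 37.9% for their brightest probe sets. The other Thbs1 probe set, 1450377_at, varied more than 81.9% of 509, so the probe sets of Thbs1 disagree. The other Matn3 probe set, 1455948_x_at, varied more than 28.4% of 366.

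**Figure D4:**
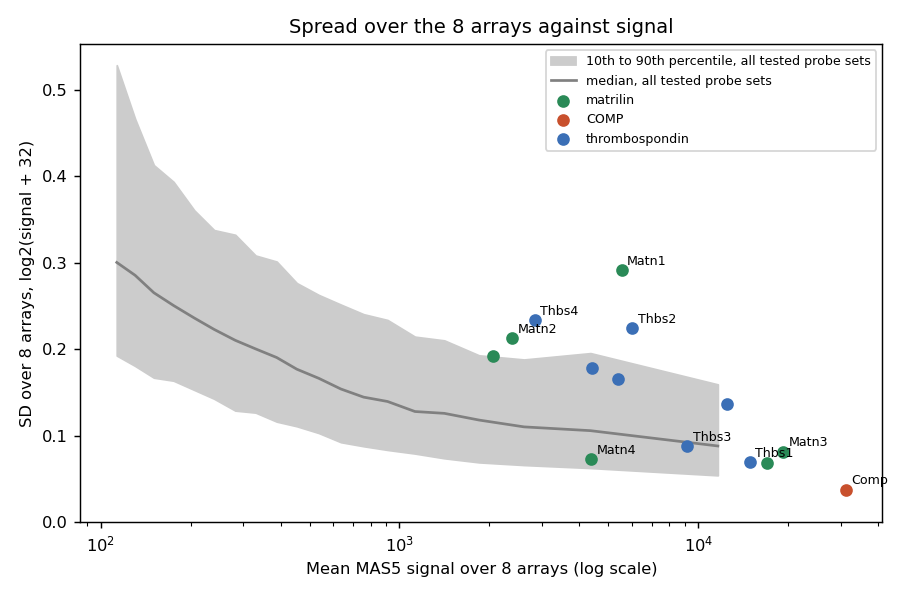
SD over the 8 arrays on the log2(signal + 32) scale against the mean MAS5 signal (log axis) for the 14 probe sets; the grey line and band are the median and the 10th to 90th percentile over 20 brightness bins of all tested probe sets. The brightest probe sets of Matn1, Thbs2, Thbs4 and Matn2 lie above the band at their signal, and Comp lies at the bottom right.

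For the 4 genes whose SD over arrays exceeded the median of all tested probe sets, the tested genes with the most similar profile were found as those with the smallest mean absolute difference of centred log2 values over the 8 arrays. Thbs4 was nearest to Mn1, Mtx3 and Gas6, at 0.038, 0.046 and 0.046, its own mean deviation being 0.19. Thbs2 was nearest to Ndnf, Rbis and Clu, at 0.039, 0.041 and 0.042, with an own deviation of 0.17. Matn2, by its probe set 1455978_a_at, was nearest to Maf, Rbm34 and Thy1, at 0.042, 0.049 and 0.057, with an own deviation of 0.12. Only the brightest probe set of each gene was used, and the other one of Matn2 disagrees with it on litter 1. Matn1 was nearest to Apcdd1, Endog and Prmt5, at 0.093, 0.096 and 0.098, with an own deviation of 0.24.

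No partner of these proteins passed the test between the genotypes. The counts below stand beside shares over all tested probe sets of 51.2% higher and 3.29% at an unadjusted p under 0.05 in limma. The 13 matrix partners are collagens, aggrecan, small proteoglycans and fibronectin, of which 10 were higher and 3 lower in arrays labelled transgenic, the median being 0.04, with 0 at an unadjusted p under 0.05 in limma. The smallest p values belonged to Fn1, Col6a3 and Col9a1, whose log2 differences were 0.07, 0.06 and 0.05. Col14a1, the chain of a collagen that COMP binds, passed the test between litters (adjusted p = 0.012 in limma), with litter means of 8415, 12258, 12362 and 10269. It was the only 1 of the 13 to pass, where 0.484% of all tested probe sets did, and its mean was lowest in litter 1. Of 10 tested thrombospondin receptors 3 were higher and 7 lower (median -0.02), with 0 at an unadjusted p under 0.05. Calr, Cd47 and Sdc4 had the smallest p values, with log2 differences of 0.06, -0.08 and -0.06. Cd36, a receptor of the type I repeats, had means of 488 in controls and 455 in transgenics, while Itgb3, Itga3 and Itga4 were too dim to be tested.

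Of the proteases known to cut COMP, matrilins or thrombospondins, 3 of 4 tested were higher and 1 lower, with 0 at an unadjusted p under 0.05 in limma. On the log2 scale Adamts1 was at 0.09, Adamts4 at -0.13, Adamts5 at 0.003 and Adamts12 at 0.04, and Adamts7 was too dim. Genes of the latent TGF-beta complex and its receptors gave 5 higher and 2 lower of 7 (median 0.07), with 0 at an unadjusted p under 0.05. Ltbp3 was at 0.21 (95% interval -0.003 to 0.42), Tgfb1 at 0.13 and Tgfb2 at -0.12. Transcription factors that act on matrilin promoters gave 6 higher and 3 lower of 9 (median 0.01), again with 0 at an unadjusted p under 0.05, and Nfix, Sox5 and Sox6, with the smallest p values, had log2 differences of 0.07, -0.11 and -0.08. Chaperones of the endoplasmic reticulum, where these proteins fold and assemble, gave 9 higher and 6 lower of 15 (median 0.03). Pdia4, a protein disulphide isomerase, was the 1 gene among them with an unadjusted p under 0.05 in limma, at -0.20 (95% interval -0.37 to -0.03), followed by Pdia6 (-0.07) and Sdf2l1 (-0.21). None of the genes in these lists passed an adjusted p of 0.05 in limma between the genotypes.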

How the data were processed

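Gene expression was measured on 8 one-colour arrays, 1 per pool. The authors deposited linear probe set intensities. The submitters' processing notes name MAS5, and its version is not given in the sources used here. All arrays had a trimmed mean of 500, at a trim of 2% on each side. The subtraction of mismatch signal in MAS5 makes dim probe sets noisy. No further scaling was applied. After leaving out 64 control probe sets, signals were turned to log2(signal + 32), which makes differences of dim probe sets smaller, and the 22518 probe sets with a mean signal above the median were tested. All 14 member probe sets passed this limit. Genotypes and litters were compared in limma 3.58.1 under R 4.3.3 (lmFit, then eBayes with its variance trend over intensity; statmod 1.5.0 for the random block), and p values were adjusted by Benjamini-Hochberg across the 22518; the fits were tested on simulated data. Errors are SDs over 4 arrays or 95% intervals. The number of arrays, 4 per group, limits the precision. Gene names came from the platform annotation, checked against RefSeq by gene identifier. Promoter sequences came from RefSeq on GRCm38.p6. Plots used matplotlib 3.10.9 (Python 3.11.15).

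The replicate number in the labels is the litter number, so it pairs a control with a transgenic array. Their deviations from the group means correlated at 0.28, 0.17, 0.04 and 0.14 in litters 1, 2, 3 and 4, against a mean of -0.05 between litters. The litter block was an alternative, as were other added constants, filters, quantile normalization, no trend, and leaving out each array or litter. The members and lists were chosen with earlier results of these data known. Named were all member probe sets, up to 3 genes per partner list with the smallest p, markers of cell types by list, and the 3 genes of most similar profile for members of above-median SD; Cd36, Col14a1, Adamts5 and the untested list members were named after their values were seen.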

Additional observations from a re-analysis of the deposited data

How the results depend on the processing

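Between the genotypes, 0 of the 14 member probe sets and 0 genes of the partner and marker lists passed in limma under any alternative run. Over all tested probe sets 0 passed, and leaving out replicates gave 0 to 2, with 1 without transgenic replicate 4 and 2 without both arrays of litter 4. The replicate block, with the litter fixed or random, changed no call, and its lowest adjusted p in limma over all probe sets was 0.30 with the fixed and 0.13 with the random block. The brightest probe sets of Matn3, Matn4, Thbs1 and Thbs4 kept their direction in all 21 alternatives. Among these, the filters, the trend and the blocks cannot move a log2 difference. The second Matn3 probe set was at -0.01 in the main fit. Comp turned to -0.018 with quantile normalization. When arrays or litters were left out, the log2 difference ran from -0.21 to 0.060 for Matn1, -0.11 to 0.14 for Matn2, -0.013 to 0.025 for Comp, -0.12 to 0.10 for Thbs2 and -0.041 to 0.066 for Thbs3. The cause of these changes of sign was not tested, and all lie within the intervals of the full data.

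Between litters, the count over all probe sets was 109; it was 30 with no filter, 0 with no intensity trend, and 10 to 284 when a litter was left out (10 without litter 1, 71 without litter 4 and 284 without litter 3). The member count of 1 became 0 with no filter or no intensity trend, 3 with quantile normalization, and 0 to 2 when a litter was left out (0 without litter 1, 2 or 4). With no filter more probe sets are adjusted for, and without a litter 6 arrays remain; the cause of the other changes was not tested. The alternatives were a halved and a doubled constant, no filter, a filter at the 75th percentile, quantile normalization, no trend, both blocks, the mean of a gene's probe sets, and each array or litter left out.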
